A study of Mus musculus with 29 samples.

Results

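The comparison set 3 liver tumour libraries against 3 libraries of non-tumour liver, all from wild-type (WT) mice labelled HFD. The 6 libraries were chosen by their labels out of 29 in 8 groups, and the genes by their level: 12673 of the 22187 genes listed reached 1 CPM (a gene's count scaled to a library total of 1000000) in at least 3 of the 6 libraries, and these were tested. The tumour libraries carry the replicate numbers 4, 5 and 6 and the non-tumour libraries the numbers 1, 2 and 3, and they are called tumour 4 to 6 and non-tumour 1 to 3. Every mouse in the series, controls included, was C57BL/6 and received the liver carcinogen diethylnitrosamine (DEN) at 25 mg/kg when 2 weeks old, with feeding for 18 weeks. Diets are named here as the sample labels name them, HFD and HFD_alcohol, although the description of the series mentions pair-fed animals and a liquid diet with ethanol. The most similar comparisons of tumour with non-tumour liver are WT mice labelled HFD_alcohol (3 tumour and 5 non-tumour libraries) and mice labelled IL17RA-/- on HFD (3 and 3). Mice labelled IL17RA-/- on HFD_alcohol (4 and 5) complete the series. Nothing in the labels ties a library to an animal, a litter, a sex or a batch, so the p-values measure only the spread between these libraries, which may be technical. Each library is a piece of tissue, in which fewer cells of a type and less RNA per cell cannot be told apart.

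DEN is turned into a DNA-damaging agent inside hepatocytes by cytochrome P450 enzymes, and given to infant mice it starts clones of altered hepatocytes that grow into tumours over months. Mouse tumours of this kind remain largely hepatocytic: they go on making plasma proteins, while many lose genes of zonated metabolism and regain genes of the fetal liver. The adult liver otherwise divides its metabolism between hepatocytes near the portal vein and those near the central vein, and it differs by sex through the pulses of growth hormone.

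The 6 libraries held 5869393 to 9169117 counts, and a floor of 3 counts stood for 0.327 to 0.511 CPM. The 10 highest genes held 16.6% to 27.4% of the counts in tumours and 15.8% to 17.8% in non-tumour liver. Tumour 4 and non-tumour 1 stood apart from their groups. Libraries were placed on the 2670 genes called when both were left out, with 0 at the mean of non-tumour 2 and 3 and 1 at the mean of tumour 5 and 6. Tumour 4 had a median position of 0.447 and was nearer the tumours for 44.9% of these genes. Non-tumour 1 had a median position of 0.253 and was nearer the tumours for 19.6% of them. On a principal component that held 55.1% of the variance, the tumours were at 7.20, 67.4 and 37.2 and the non-tumour livers at -18.0, -54.0 and -39.8. The second component (17.1%) put tumours 4 and 6 at opposite ends, at 45.8 and -33.2. Tumour 5 was at 2.185 on it, and the non-tumour livers were at -0.0776, -11.9 and -2.87. Counts over gene lists are given with all 6 libraries and also, as "without the 2 libraries", after leaving out tumour 4 and non-tumour 1. For a named gene, square brackets after a log2 fold change hold its value without the 2 libraries where the fold change moved by more than 1.5 times, and an ended or gained call is given in words.

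**Figure D1:**
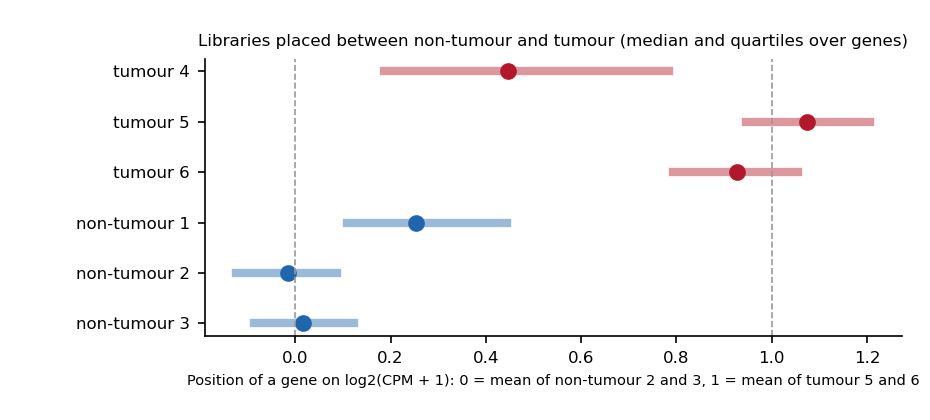
Position of each of the 6 libraries on the log2(CPM + 1) scale between the mean of non-tumour 2 and 3 (0) and the mean of tumour 5 and 6 (1), over the 2670 genes called without tumour 4 and non-tumour 1. Points are medians over genes and bars run from the lower to the upper quartile: tumour 4 lies at 0.447 and non-tumour 1 at 0.253, between the other 4 libraries.

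In all, 2049 of the 12673 genes (16.2%) differed between tumour and non-tumour liver by limma on log2(CPM + 1) at a Benjamini-Hochberg adjusted p under 0.05. Of these, 1005 (7.93% of genes tested) were higher in tumour and 1044 (8.24%) were lower, and 516 of the higher and 497 of the lower genes differed by 2-fold or more on that scale. All tested genes had a median log2 fold change of 0.06. The 3 tumour values and the 3 non-tumour values did not overlap for 2946 genes (23.2%), of which 1727 were called. The filter was passed only through the tumour libraries by 79 genes, of which 68 were called higher, and only through the non-tumour libraries by 52, of which 31 were called lower. Without the 2 libraries 1238 genes (9.77%) were higher and 1432 (11.3%) lower; 1802 genes were called in the same direction in both fits and 0 in opposite directions. Leaving out a single library gave 429 (without non-tumour 2) to 1202 (without tumour 6) higher genes and 561 (without tumour 5) to 1590 (without tumour 4) lower genes. A fit on the 6 libraries alone, in place of all 29, called 194 higher and 219 lower. For the genes named below, a call that ended when any single library was left out is given with the highest adjusted p over the 6 removals. The shares of all genes called, 7.93% and 8.24%, are the background for each count of list members with all 6 libraries. Counts without the 2 libraries stand against 9.77% and 11.3%. With 1 library left out, the calls over all genes move within the ranges above, and list counts move with them.

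**Figure D2:**
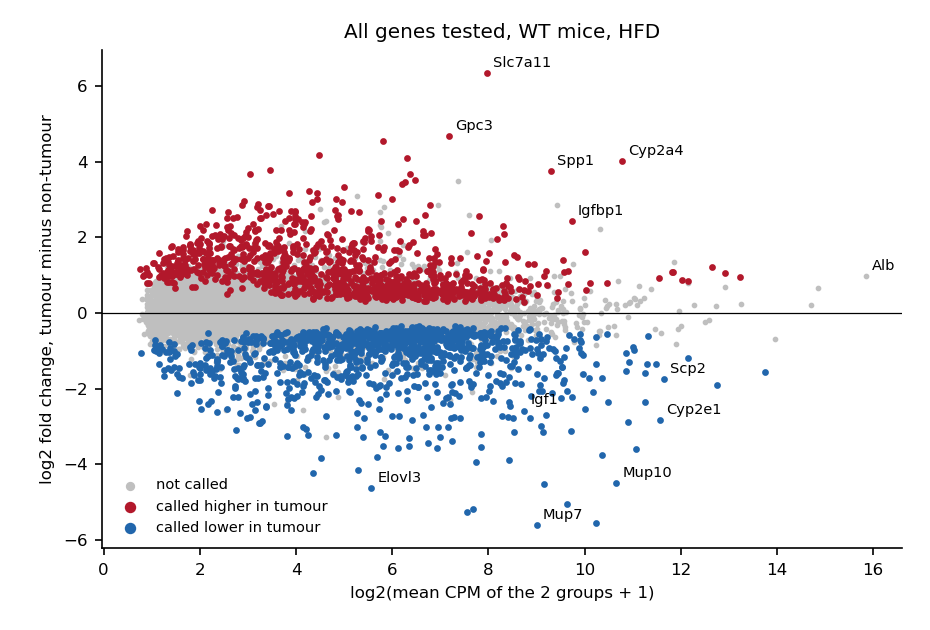
Log2 fold change of tumour over non-tumour against log2(mean CPM of the 2 groups + 1), for the 12673 genes tested. Red points are the 1005 genes called higher and blue points the 1044 called lower; Slc7a11 lies at 6.35 and Mup7 at -5.62.

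The largest falls were in the major urinary proteins, small pheromone-carrying lipocalins that the male mouse liver makes in bulk under growth hormone pulses. Of 17 tested members, 16 fell, with a median log2 fold change of -3.83, and all 17 had every tumour library below every non-tumour library. The filter was passed through the non-tumour libraries alone by 4 of them, Mup1, Mup2, Mup12 and Mup16, 3 of which were among the 16. The summed level of the 21 members in the data, tested or not, was 5857, 1940 and 3476 CPM in tumours 4 to 6 and 20040, 37820 and 16780 CPM in non-tumour 1 to 3. The genes lie in a cluster of near-identical copies on chromosome 4. The split of reads between single members is therefore uncertain, and the sum is the firmer value. It is not even across members: Mup20 held most of it in each tumour and in non-tumour 1 and 3 (values below). The fall of Mup20 was smaller than those of Mup7 and Mup19. The promoters of Mup7 and Mup19 are shown because they make that likeness visible. Capitals mark the longest run that both windows share, 66 bases. The windows, from RefSeq, hold 250 bases before and 50 after the start (build GRCm38.p6, minus strand). Mup7 is at chr4:60070426-60070725 and Mup19 at chr4:61782175-61782474.
Mup7: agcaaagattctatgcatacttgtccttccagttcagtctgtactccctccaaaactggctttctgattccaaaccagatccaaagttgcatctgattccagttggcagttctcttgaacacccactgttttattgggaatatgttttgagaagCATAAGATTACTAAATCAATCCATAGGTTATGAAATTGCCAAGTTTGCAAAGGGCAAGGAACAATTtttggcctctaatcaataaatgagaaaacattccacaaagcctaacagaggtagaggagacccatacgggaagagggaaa
Mup19: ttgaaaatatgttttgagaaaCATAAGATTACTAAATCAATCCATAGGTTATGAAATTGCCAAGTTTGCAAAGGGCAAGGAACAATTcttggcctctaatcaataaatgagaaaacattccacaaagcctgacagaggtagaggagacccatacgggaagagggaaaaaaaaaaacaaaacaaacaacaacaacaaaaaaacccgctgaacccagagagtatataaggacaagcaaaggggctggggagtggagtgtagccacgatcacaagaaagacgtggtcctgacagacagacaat
The run lies at positions -96 to -31 from the annotated start of Mup7 and -229 to -164 from that of Mup19. Slid by 133 bases, the windows were 97.01% identical over 167 bases. Of the 12 members with a promoter entry, Mup3 and Mup21 were the least like Mup7, with 64.55% and 61.95% identity at their best shift.

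Mup7 had 30.8, 1.61 and 9.56 CPM in tumours, against 348, 2570 and 114 CPM in non-tumour liver, a log2 fold change of -5.62 ± 1.57 (SE) [-6.70] with an adjusted p of 0.0155. Mup19 had 84.97, 3.04 and 52.0 CPM in tumours, against 1538, 5289 and 227 CPM in non-tumour liver (-5.54 ± 1.09 [-6.23], adjusted p = 0.00125). Both groups spread widely: tumour 5 was lowest and non-tumour 2 highest for each gene, and no tumour value reached a non-tumour value. Mup10 averaged 161 ± 127 CPM in tumours and 3071 ± 2313 in non-tumour liver (SD, n = 3 each; log2 fold change -4.50 [-5.17]), Mup14 61.2 ± 67.9 CPM in tumours and 1530 ± 1351 in non-tumour liver (-5.04 [-5.96]), and Mup11 36.0 ± 30.3 CPM in tumours and 1108 ± 1234 in non-tumour liver (-4.52 [-5.12]). Mup15, Mup17 and Mup12 averaged 4.27, 4.89 and 0.321 CPM in tumours and 371, 401 and 38.5 CPM in non-tumour liver. Mup20, the male-specific pheromone darcin, was at 4718, 1741 and 2797 CPM in tumours and 10590, 8976 and 12370 CPM in non-tumour liver (log2 fold change -1.89, adjusted p = 0.00855; named after its values were seen). Mup1 missed the threshold (adjusted p = 0.0736), with 0 to 0.951 CPM in tumours and 3.03 to 135 CPM in non-tumour liver. The count of falls was 15 without the 2 libraries and 7 to 15 with 1 library left out, lowest without non-tumour 2. The calls of Mup7 (up to 0.111, without non-tumour 2 or tumour 5), Mup15 (0.0832, without non-tumour 2 or tumour 5) and Mup17 (0.0898, without non-tumour 2 or tumour 5) ended with 1 library left out, and so did that of Mup12 (0.0721, without non-tumour 2). By limma-voom the adjusted p was 0.328 for Mup12, 0.0943 for Mup15 and 0.0758 for Mup17.

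Other genes that are higher in male than in female mouse liver fell too: 11 of 19 tested fell and 1 rose (median -1.91; 11 and 2 without the 2 libraries). With 1 library left out, 5 to 11 fell and 0 to 2 rose, with the fewest falls without tumour 5. Elovl3, an elongase of very long fatty acids, had 2.90, 0.302 and 4.91 CPM in tumours, against 82.8, 153 and 34.9 CPM in non-tumour liver (log2 fold change -4.64 ± 0.95, adjusted p = 0.00173). Cyp4a12b, a male-biased fatty acid hydroxylase, had 23.0, 0.181 and 0.888 CPM in tumours, against 65.1, 94.6 and 45.5 CPM in non-tumour liver (-4.14 ± 0.81 [-5.48], adjusted p = 0.00126). Tumour 4 was the nearest to the non-tumour values for Cyp4a12b. The exception was Serpina12, which encodes the adipokine vaspin and averaged 473 ± 274 CPM in tumours and 103 ± 15.8 in non-tumour liver (1.95 [2.66], adjusted p = 0.036, up to 0.164 without non-tumour 1, non-tumour 2, non-tumour 3, tumour 5 or tumour 6). Among 10 tested female-biased genes 2 rose and 1 fell (2 and 2 without the 2 libraries). Cyp3a16, 1 of the 2 rises, passed the filter on level only through the tumour libraries. Single removals gave 0 to 3 rises and 0 to 2 falls, with 0 rises without non-tumour 3. Cyp2a4, a steroid hydroxylase, reached 2973, 4054 and 2784 CPM in tumours, against 228, 320 and 105 CPM in non-tumour liver (4.02 ± 1.13, adjusted p = 0.0156), without overlap. Its near-identical neighbour Cyp2a5 had 4306, 1145 and 1332 CPM in tumours and 714, 1253 and 1260 CPM in non-tumour liver and was not called. It was named after its values were seen, and the split between the pair is uncertain. Cyp4a14, a fatty acid hydroxylase, averaged 29.6 ± 37.0 CPM in tumours and 182 ± 29.6 in non-tumour liver (-3.43 [-4.61], adjusted p = 0.0343). The call of Cyp2a4 ended without non-tumour 3 or tumour 5 (up to 0.0778), and that of Cyp4a14 without any 1 library but tumour 4 (up to 0.217).

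The growth hormone and IGF axis had 3 falls and 2 rises among 17 tested genes (median -0.42; 5 and 2 without the 2 libraries). Single removals gave 2 to 4 falls and 0 to 3 rises, fewest of both without non-tumour 2 or tumour 5. Ghr, the growth hormone receptor, had 227, 133 and 132 CPM in tumours, against 422, 754 and 592 CPM in non-tumour liver (-1.85 ± 0.26, adjusted p = 0.000104; named after its values were seen). Igf1, the circulating growth factor that growth hormone induces, had 504, 58.4 and 42.2 CPM in tumours, against 599, 763 and 602 CPM in non-tumour liver (-2.58 ± 0.58 [-3.75], adjusted p = 0.00358). Igfals, which keeps IGF1 in its circulating complex, had 76.6, 3.17 and 5.34 CPM in tumours, against 63.2, 101 and 60.0 CPM in non-tumour liver (-2.54 ± 0.67 [-3.94], adjusted p = 0.011). Tumours 5 and 6 were low for both, while tumour 4 lay close to the non-tumour livers and, for Igfals, above non-tumour 1 and 3. Igfbp1, an IGF-binding protein that insulin represses, rose to 281, 1796 and 2278 CPM in tumours, against 498, 144 and 99.7 CPM in non-tumour liver (2.44 ± 0.63 [4.07], adjusted p = 0.00904), and tumour 4 lay below non-tumour 1. Jak2, the kinase bound to the growth hormone receptor, averaged 66.1 ± 21.1 CPM in tumours and 42.2 ± 5.70 in non-tumour liver (0.60, adjusted p = 0.032). With 1 library left out, calls ended for Igfals (up to 0.116, without non-tumour 2, tumour 5 or tumour 6), Igfbp1 (0.0701, without non-tumour 2, non-tumour 3, tumour 5 or tumour 6) and Jak2 (0.274, without non-tumour 2, non-tumour 3 or tumour 5).

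Enzymes that oxidise and conjugate foreign compounds fell broadly. On a list of cytochrome P450 genes of families 1 to 3, 13 of 30 tested fell and 0 rose (median -0.84; 13 and 1 without the 2 libraries; 7 to 14 falls with 1 library left out, fewest without tumour 5). The list does not hold every member of these families: Cyp2a4 and Cyp3a16, which rose, were counted above as female-biased genes and are not in it. Cyp2c50, an oxidase of arachidonic acid and drugs, had 108, 10.2 and 49.0 CPM in tumours, against 486, 1050 and 374 CPM in non-tumour liver (-3.87 ± 0.70 [-4.73], adjusted p = 0.000622). Its relative Cyp2c54 had 25.3, 0.907 and 6.66 CPM in tumours, against 67.1, 282 and 31.4 CPM in non-tumour liver (-3.56 ± 0.77 [-4.65], adjusted p = 0.00262). Neither gene overlapped between groups, and tumour 5 was lowest in both; the Cyp2c genes are close copies, so their split is uncertain. Among 12 tested carboxylesterases, 7 fell and 3 rose. Ces3a and Ces3b, esterases of the endoplasmic reticulum, averaged 227 ± 224 and 33.4 ± 52.5 CPM in tumours and 1466 ± 476 and 128 ± 92.4 CPM in non-tumour liver (log2 fold changes -3.12 [-4.09] and -3.30 [-5.13]). The 3 rises were in the Ces2 group: Ces2c had 181, 172 and 183 CPM in tumours and 73.6, 78.3 and 58.7 CPM in non-tumour liver (1.35 ± 0.36, adjusted p = 0.0114), and Ces2e averaged 820 ± 377 CPM in tumours and 348 ± 53.1 in non-tumour liver (1.11 [1.70]). The esterase count was 9 falls and 3 rises without the 2 libraries, and 3 (without tumour 5) to 9 falls and 1 (without non-tumour 3) to 3 rises with 1 library left out. Single removals ended the calls of Ces3b (up to 0.144, without non-tumour 2, tumour 5 or tumour 6), Ces2e (0.0968, without non-tumour 2, non-tumour 3, tumour 5 or tumour 6) and Ces2c (0.0578, without non-tumour 3).

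Conjugating enzymes of phase II had 12 falls and 0 rises among 23 tested (median -0.84; 15 and 1 without the 2 libraries). Sult5a1, 1 of the 12, passed the filter on level only through the non-tumour libraries. Falls numbered 8 to 15 with 1 library left out, fewest without non-tumour 2 or tumour 5. Inmt, an indole and thioether N-methyltransferase, had 98.6, 11.2 and 34.0 CPM in tumours, against 365, 523 and 342 CPM in non-tumour liver (-3.53 ± 0.56 [-4.36], adjusted p = 0.000231). Nnmt, the nicotinamide N-methyltransferase, had 4.18, 4.54 and 14.0 CPM in tumours, against 50.1, 101 and 73.3 CPM in non-tumour liver (-3.27 ± 0.51, adjusted p = 0.00018). The groups lay far apart in both, and both calls were kept with each library left out. Ethanol and acetaldehyde oxidation had 7 falls and 0 rises among 12 genes (median -0.88; 8 and 0 without the 2 libraries). The alcohol dehydrogenase Adh4 averaged 29.9 ± 23.5 CPM in tumours and 127 ± 26.6 in non-tumour liver (-2.29 [-2.97], adjusted p = 0.000576), and the fatty aldehyde dehydrogenase Aldh3a2 340 ± 228 CPM in tumours and 1252 ± 277 in non-tumour liver (-2.05, adjusted p = 0.0011).

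Bile acid synthesis and transport had 14 falls and 2 rises among 21 tested genes (median -1.46; 15 and 1 without the 2 libraries; 7 to 15 falls with 1 library left out, fewest without tumour 5). Cyp7a1, the rate-limiting enzyme of bile acid synthesis, had 101, 18.4 and 19.6 CPM in tumours, against 116, 782 and 341 CPM in non-tumour liver (-3.20 ± 0.80 [-4.69], adjusted p = 0.00798). Cyp8b1, which directs synthesis towards cholic acid, had 130, 4.99 and 20.5 CPM in tumours, against 105, 372 and 217 CPM in non-tumour liver (-3.00 ± 0.70 [-4.65], adjusted p = 0.00448). In both genes tumours 5 and 6 were low and tumour 4 and non-tumour 1 lay side by side. Scp2, a peroxisomal thiolase and sterol carrier, had the lowest p of all genes tested: 2093, 1132 and 1296 CPM in tumours, against 4299, 5313 and 5066 CPM in non-tumour liver (-1.75 ± 0.19, adjusted p = 1.56e-05; named after its values were seen). The rises were Cyp39a1, an oxysterol hydroxylase, with 51.6, 58.9 and 111 CPM in tumours and 14.6, 17.9 and 10.9 CPM in non-tumour liver (2.22 ± 0.47, adjusted p = 0.00206), and Abcc2, the canalicular conjugate pump, with 1266 ± 369 CPM in tumours and 812 ± 106 in non-tumour liver (0.60, adjusted p = 0.0369). The call of Abcc2 ended without the 2 libraries (adjusted p = 0.206) and with either of them, non-tumour 2 or tumour 5 left out alone (up to 0.244). Those of Cyp7a1 (up to 0.0698, without non-tumour 2 or tumour 5) and Cyp8b1 (0.0582, without tumour 5) ended too.

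**Figure D3:**
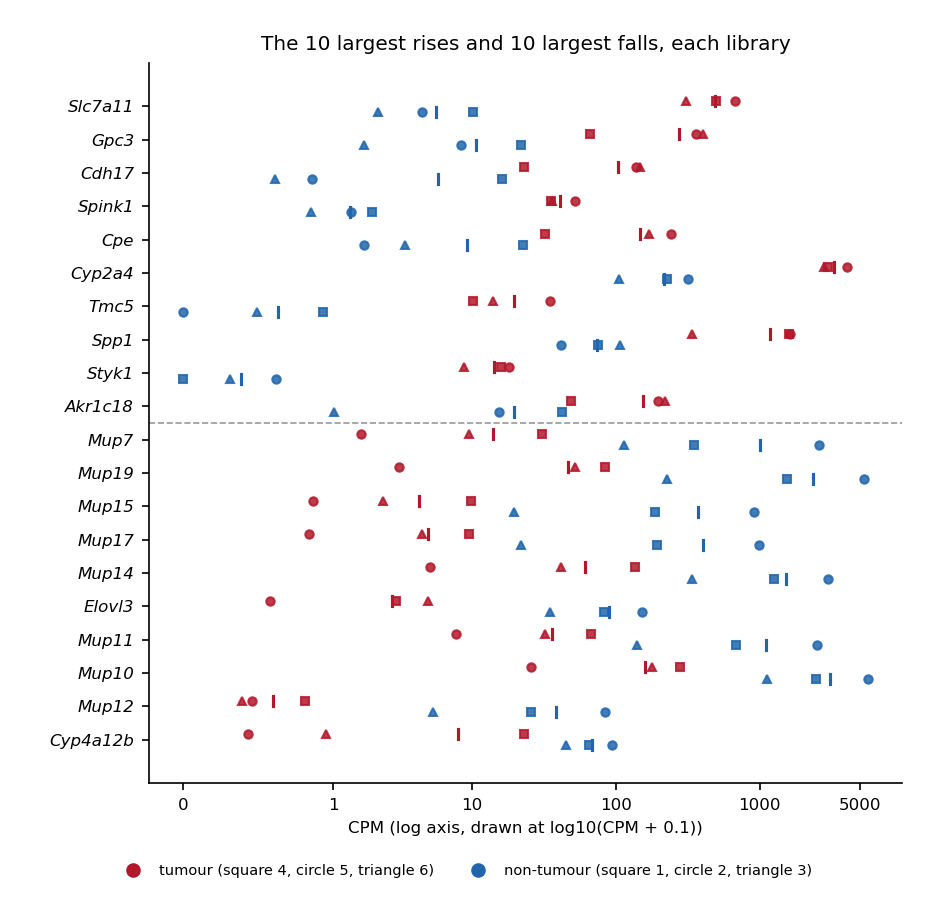
CPM of the 10 genes with the largest rise (top) and the 10 with the largest fall (bottom) in each library, on a log axis drawn at log10(CPM + 0.1). Red marks are tumours 4 to 6, blue marks non-tumour 1 to 3, and vertical ticks are group means; the rule for these genes required that the groups do not overlap, and tumour 4 (red square) lies nearest the non-tumour values in Gpc3, Cdh17, Cpe and Akr1c18.

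Genes of mature hepatocyte identity split by kind. Of 28 tested, 14 fell and 4 rose (median -0.67; 14 and 9 without the 2 libraries), and the 4 that rose encode plasma proteins. With 1 library left out there were 12 to 15 falls and 1 (without non-tumour 3 or tumour 6) to 9 (without tumour 4) rises. The defining marker Alb (albumin) had 57200, 82430 and 97090 CPM in tumours and 39180, 41210 and 36530 CPM in non-tumour liver, without overlap but short of the threshold (0.99 ± 0.37, adjusted p = 0.0707; 0.0472 without the 2 libraries). Apoa1, the main protein of high-density lipoprotein, rose to 7335, 7468 and 12040 CPM in tumours, against 5235, 3334 and 2914 CPM in non-tumour liver (1.23 ± 0.26, adjusted p = 0.00184). Ahsg (fetuin A) averaged 10500 ± 3732 CPM in tumours and 4962 ± 1456 in non-tumour liver (1.07, adjusted p = 0.00775, up to 0.0723 without non-tumour 3 or tumour 6). Among the falls, Hpd, an enzyme of tyrosine breakdown, had 241, 33.6 and 146 CPM in tumours, against 644, 1307 and 1015 CPM in non-tumour liver (-3.15 ± 0.49 [-4.02], adjusted p = 0.00018). Cyp2e1, the ethanol- and nitrosamine-oxidising P450, had 1593, 330 and 656 CPM in tumours, against 3210, 6880 and 5585 CPM in non-tumour liver (-2.83 ± 0.49 [-3.73], adjusted p = 0.000468). Hepatocyte transcription factors had 5 falls and 0 rises among 20 (median -0.36; 4 and 0 without the 2 libraries; 3 falls without non-tumour 2, non-tumour 3, tumour 5 or tumour 6). The bile acid receptor Nr1h4 (FXR) averaged 63.4 ± 35.5 CPM in tumours and 121 ± 24.9 in non-tumour liver (-1.04 [-1.64], adjusted p = 0.0053), and the xenobiotic receptor Nr1i3 (CAR) 32.0 ± 12.1 CPM in tumours and 111 ± 49.4 in non-tumour liver (-1.72 [-2.38], adjusted p = 0.0196, up to 0.11 without non-tumour 2, non-tumour 3 or tumour 6).

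Genes of both liver zones fell more often than they rose. Near the central vein, 7 of 21 Wnt-dependent genes fell and 1 rose (median -1.37), and without the 2 libraries 13 fell and 1 rose; with 1 library left out 3 to 12 fell, fewest without tumour 5, and 0 or 1 rose. The pericentral ornithine aminotransferase Oat had 303, 47.2 and 101 CPM in tumours, against 589, 1223 and 997 CPM in non-tumour liver (-2.97 ± 0.71 [-3.98], adjusted p = 0.00563, and 0.0566 without tumour 5). Slc1a4, a neutral amino acid transporter, rose to 40.6, 45.2 and 37.5 CPM in tumours, against 19.6, 14.1 and 13.4 CPM in non-tumour liver (1.35 ± 0.37, adjusted p = 0.0144, up to 0.0639 without non-tumour 2, non-tumour 3 or tumour 5). Near the portal vein, 10 of 20 genes fell and 1 rose (median -1.04; 9 and 1 without the 2 libraries). Cyp2f2, a naphthalene-oxidising P450 of periportal cells, had 652, 20.2 and 26.3 CPM in tumours, against 424, 556 and 517 CPM in non-tumour liver (-2.78 ± 0.75, adjusted p = 0.0124). Tumour 4 held the highest value of the 6 libraries, and the call ended without tumour 5 or tumour 6 (up to 0.127), while the log2 fold change without the 2 libraries was -4.48. Cdh1 (E-cadherin), an adhesion protein richer in periportal cells, rose to 226, 202 and 140 CPM in tumours, against 51.7, 32.4 and 8.43 CPM in non-tumour liver (2.87 ± 0.55, adjusted p = 0.00103).

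Genes of glucose production were among the falls: of 28 genes of glycolysis and gluconeogenesis, 5 fell and 0 rose (median -0.34; 7 and 1 without the 2 libraries). There were 4 to 10 falls with 1 library left out, fewest without tumour 5 and most without tumour 4. Pck1, which makes phosphoenolpyruvate, had 289, 379 and 793 CPM in tumours, against 1876, 1875 and 3380 CPM in non-tumour liver (-2.36 ± 0.33, adjusted p = 9.83e-05). G6pc, which releases free glucose, had 63.1, 64.7 and 120 CPM in tumours, against 434, 536 and 640 CPM in non-tumour liver (-2.73 ± 0.60, adjusted p = 0.00303). All 3 tumours, tumour 4 included, lay below every non-tumour value in both genes. The other falls in the list included Fbp1, the fructose bisphosphatase of gluconeogenesis, and the liver glycogen phosphorylase Pygl.

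Methionine and one-carbon enzymes moved in both directions: 11 of 23 fell and 5 rose (median -0.61; 12 and 5 without the 2 libraries). Removal of 1 library left 7 to 13 falls and 3 to 5 rises, fewest of both without tumour 5. Those that rose were Psat1, Phgdh and Psph, which make serine, and the mitochondrial folate enzymes Mthfd2 and Aldh1l2. Psat1 reached 27.6, 60.8 and 81.8 CPM in tumours, against 10.7, 1.87 and 3.15 CPM in non-tumour liver (3.35 ± 0.68 [4.37], adjusted p = 0.00161). Phgdh reached 9.34, 20.7 and 23.3 CPM in tumours, against 4.48, 0.852 and 0.449 CPM in non-tumour liver (2.85 ± 0.49 [3.81], adjusted p = 0.000401). Those that fell belong to the hepatic methionine cycle and choline breakdown. Gnmt, which uses up S-adenosylmethionine, had 235, 44.3 and 87.5 CPM in tumours, against 329, 720 and 662 CPM in non-tumour liver (-2.46 ± 0.51 [-3.45], adjusted p = 0.00173). Bhmt, the betaine-dependent methyltransferase of homocysteine, averaged 1014 ± 1016 CPM in tumours and 3867 ± 905 in non-tumour liver (-2.36 [-3.36], adjusted p = 0.00747, and 0.0637 without tumour 5). Of 21 genes of the integrated stress and unfolded protein response, 3 rose and 0 fell (median 0.40; 3 and 0 without the 2 libraries; 2 to 4 rises with 1 library left out). Asns, the asparagine synthetase, had 35.5, 49.4 and 60.2 CPM in tumours and 11.6, 6.13 and 5.06 CPM in non-tumour liver (2.56 ± 0.59, adjusted p = 0.0041). The ATF4 target Trib3 averaged 31.5 ± 11.95 CPM in tumours and 9.15 ± 5.82 in non-tumour liver (1.75 [2.52], adjusted p = 0.00492). The third rise was Xbp1, a regulator of the unfolded protein response.

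Slc7a11 (ENSMUSG00000027737), the cystine importer that feeds glutathione synthesis, showed the largest rise among the named genes. It had 498, 676 and 306 CPM in tumours, against 10.2, 4.43 and 2.14 CPM in non-tumour liver (6.35 ± 1.37, adjusted p = 0.00255), and every tumour lay far above every non-tumour liver. Its promoter is shown because the gene is a known target both of NRF2, the regulator of antioxidant genes, and of ATF4, which acts on amino acid response elements. The glutathione transferases Gstp2, which rose, and Gsta3, which fell, are shown beside it. Capitals mark the CCAAT box, the element TTTGAA, the amino acid response motif TGATGCAA and the antioxidant response core TGACNNNGC on either strand. On the other strand the first reads as ATTGG, the second as TTCAAA and the third as TTGCATCA. Windows are as above on GRCm38.p6, with Slc7a11 at chr3:50443564-50443863 and Gstp2 at chr19:4042172-4042471, minus strand, and Gsta3 at chr1:21240335-21240634, plus strand.
Slc7a11: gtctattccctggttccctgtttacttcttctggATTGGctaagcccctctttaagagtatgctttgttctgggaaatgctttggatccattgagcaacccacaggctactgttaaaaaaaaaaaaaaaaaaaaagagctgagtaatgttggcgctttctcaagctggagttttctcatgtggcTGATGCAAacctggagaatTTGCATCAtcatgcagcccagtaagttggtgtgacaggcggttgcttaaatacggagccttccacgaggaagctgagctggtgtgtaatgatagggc
Gstp2: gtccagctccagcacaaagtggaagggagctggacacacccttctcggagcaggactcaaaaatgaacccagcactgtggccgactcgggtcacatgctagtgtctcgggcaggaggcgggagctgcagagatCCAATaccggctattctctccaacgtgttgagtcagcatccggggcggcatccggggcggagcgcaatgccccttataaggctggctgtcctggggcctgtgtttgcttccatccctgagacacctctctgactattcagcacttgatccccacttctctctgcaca
Gsta3: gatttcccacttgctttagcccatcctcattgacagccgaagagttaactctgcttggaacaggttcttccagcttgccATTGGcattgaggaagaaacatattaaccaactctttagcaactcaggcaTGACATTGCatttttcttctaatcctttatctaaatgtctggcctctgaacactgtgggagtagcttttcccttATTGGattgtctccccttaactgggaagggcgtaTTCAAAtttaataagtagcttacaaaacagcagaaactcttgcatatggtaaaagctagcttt
The Slc7a11 window holds TGATGCAA at position -66 and, on the other strand, at -47. That motif was chosen after the sequence was seen. It occurs in 0.617% of 12651 promoters of tested genes, in 0.936% of those of genes called higher, and in 19.05% of the 21 promoters of the integrated stress list, those of Atf3, Chac1, Fgf21 and Herpud1, of which 0 were called. TGACNNNGC is in the Gsta3 window at -121 and in neither of the other windows. It occurred in 17.9% of 28 promoters of the NRF2 list and 14.2% of all tested promoters. Forms with G in place of the C of TGAC were not counted, such as the TGAGTCAGC in the Gstp2 window.

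Of 26 genes of the NRF2 programme, 4 rose and 1 fell (median 0.39), and without the 2 libraries 4 rose and 3 fell with a median of -0.15. With 1 library left out 3 to 6 rose and 0 to 3 fell, most rises without tumour 6 and most falls without tumour 4. The summed level was highest in tumour 4, at 21700 CPM, with 10560 and 9005 CPM in tumours 5 and 6 and 10900, 9948 and 12460 CPM in non-tumour 1 to 3. Gstp2 had 128, 114 and 92.1 CPM in tumours, against 12.5, 25.4 and 6.41 CPM in non-tumour liver (3.01 ± 0.78, adjusted p = 0.00968, and 0.0641 without non-tumour 3). It has close copies among the Gstp genes. The other rises were Srxn1, which repairs oxidised peroxiredoxins, and Gclc, the catalytic subunit of the first step of glutathione synthesis. Gclc had 1417, 1255 and 627 CPM in tumours, against 433, 424 and 325 CPM in non-tumour liver (1.40, adjusted p = 0.00368, named after its values were seen). Gsta3, an alpha-class glutathione transferase, averaged 440 ± 268 CPM in tumours and 911 ± 228 in non-tumour liver (-1.18 [-1.85], adjusted p = 0.00773, up to 0.078 without non-tumour 3 or tumour 5). The pentose phosphate dehydrogenase Pgd had 189, 148 and 72.1 CPM in tumours, against 54.8, 25.9 and 49.2 CPM in non-tumour liver (1.59 ± 0.31, adjusted p = 0.00126), and it was the only one of 9 genes of that list called with all 6 libraries. Genes that stood above the other 5 libraries in tumour 4 were listed by the size of the gap, after the values were seen. They were led by the transporter Abcc12, at 131 CPM against 2.81 to 4.62 CPM in the other 5 libraries, and by the glutathione peroxidase Gpx2, at 46.3 CPM against 0 to 2.57 CPM.

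Of 25 cholesterol synthesis genes, 6 rose and 0 fell, 21 had a positive difference, and the median was 1.11 (6 and 1, median 1.02, without the 2 libraries; 1 to 7 rises with 1 library left out, fewest without tumour 5). Sqle, the squalene epoxidase, had 108, 189 and 101 CPM in tumours, against 21.3, 13.6 and 4.27 CPM in non-tumour liver (3.42 ± 1.01, adjusted p = 0.0213). Every tumour lay above every non-tumour liver. The call of Sqle ended with 1 library left out (up to 0.118, without non-tumour 2, non-tumour 3 or tumour 5).

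Fatty acid genes fell more often. Of 27 genes of fatty acid oxidation and PPARA targets, 18 fell and 1 rose (median -0.76; 20 and 1 without the 2 libraries; 11 to 20 falls with 1 library left out, fewest without non-tumour 3 or tumour 5). Acaa1b, a peroxisomal thiolase, had 702, 408 and 252 CPM in tumours, against 1420, 1447 and 2742 CPM in non-tumour liver (-2.09 ± 0.41, adjusted p = 0.00124). Cyp4a10, a fatty acid omega-hydroxylase induced by PPARA, had 114, 7.15 and 9.12 CPM in tumours, against 162, 269 and 192 CPM in non-tumour liver (-3.27 ± 0.89 [-4.65], adjusted p = 0.0135, up to 0.104 without non-tumour 2, tumour 5 or tumour 6). Its paralogue Cyp4a31 rose to 31.4, 31.3 and 16.6 CPM in tumours, against 2.97, 4.49 and 2.15 CPM in non-tumour liver (2.69 ± 0.47, adjusted p = 0.000532), though Cyp4a copies are alike enough for reads to be shared. Lipogenesis had 4 falls and 0 rises among 22 genes (median -0.27; 3 and 0 without the 2 libraries; 0 to 4 with 1 library left out, 0 without tumour 5). Mogat1, 1 of the 4, passed the filter on level only through the non-tumour libraries. The stearoyl-CoA desaturase Scd1 had 4881, 7687 and 6742 CPM in tumours, against 13270, 13340 and 36430 CPM in non-tumour liver (-1.56 ± 0.50, adjusted p = 0.0358, 0.0667 without the 2 libraries and up to 0.224 without non-tumour 3, tumour 4, tumour 5 or tumour 6). Thrsp (Spot 14), a lipogenic regulator, averaged 44.3 ± 17.4 CPM in tumours and 248 ± 129 in non-tumour liver (-2.40, adjusted p = 0.015, up to 0.0906 without non-tumour 3, tumour 5 or tumour 6).

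Lipid droplet genes had 7 falls and 1 rise among 18 tested (median -0.46; 6 and 2 without the 2 libraries). Single removals gave 3 to 8 falls and 0 or 1 rise, with the fewest falls without non-tumour 3 or tumour 5. Plin4, a droplet coat protein, had 10.1, 8.46 and 9.05 CPM in tumours, against 72.0, 61.5 and 157 CPM in non-tumour liver (-3.14 ± 0.62, adjusted p = 0.00132). Fitm1, which partitions fat into droplets, had 21.2, 2.42 and 5.89 CPM in tumours, against 57.0, 55.9 and 84.4 CPM in non-tumour liver (-3.02 ± 0.49 [-3.84], adjusted p = 0.000278). Plin3, a ubiquitous coat protein, averaged 91.5 ± 9.49 CPM in tumours and 57.4 ± 17.3 in non-tumour liver (0.71, adjusted p = 0.0237, up to 0.209 without non-tumour 2, tumour 4 or tumour 6). The respiratory chain had 16 falls and 0 rises among 24 nuclear-encoded subunits, all 24 had a negative difference, and the median was -0.55 (23 and 0, median -0.81, without the 2 libraries; 3 to 23 falls with 1 library left out, 3 without tumour 5). Sdha, the flavoprotein of complex II, had 396, 238 and 221 CPM in tumours, against 473, 557 and 588 CPM in non-tumour liver (-0.96 ± 0.16, adjusted p = 0.000378), and Ndufb8 of complex I 74.7, 41.9 and 51.5 CPM in tumours, against 91.2, 87.1 and 95.1 CPM in non-tumour liver (-0.73 ± 0.17, adjusted p = 0.00382).

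Of 16 tested oncofetal and liver tumour markers, 9 rose and 0 fell, with a median of 2.498, and 13 rose without the 2 libraries (4 to 12 with 1 library left out, fewest without non-tumour 3). Igf2bp3, 1 of the 9, passed the filter on level only through the tumour libraries. Gpc3, a cell-surface proteoglycan of fetal liver and hepatocellular carcinoma, had 66.3, 359 and 401 CPM in tumours, against 21.99, 8.35 and 1.69 CPM in non-tumour liver (4.68 ± 1.15 [6.25], adjusted p = 0.00672, and 0.0541 without non-tumour 3). Spink1, a secreted trypsin inhibitor, had 35.5, 51.9 and 35.9 CPM in tumours, against 1.96, 1.36 and 0.674 CPM in non-tumour liver (4.19 ± 0.79, adjusted p = 0.000861). Afp, the fetal counterpart of albumin, had 108, 482 and 242 CPM in tumours and 141, 9.37 and 5.17 CPM in non-tumour liver, and non-tumour 1 lay above tumour 4. It missed the threshold (3.49 ± 1.24, adjusted p = 0.0557) and passed it without the 2 libraries (5.42, adjusted p = 0.0069). The other rises in the list included Prom1, Cd24a, Golm1, Igf2bp3, Scd2, Abcc4 and Igdcc4. Igf2bp3 is an mRNA-binding protein of fetal tissues, and Golm1 a Golgi protein released into blood.

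Other genes among the 10 largest rises were in none of the lists. Cdh17, an adhesion protein known as liver-intestine cadherin, had 23.1, 139 and 149 CPM in tumours, against 16.3, 0.681 and 0.337 CPM in non-tumour liver (4.56 ± 1.18 [6.59], adjusted p = 0.0096). Cpe, the prohormone-processing carboxypeptidase E, had 32.5, 242 and 171 CPM in tumours, against 22.5, 1.70 and 3.37 CPM in non-tumour liver (4.10 ± 1.23 [5.89], adjusted p = 0.0238). Akr1c18, a hydroxysteroid dehydrogenase that inactivates progesterone, had 48.6, 198 and 221 CPM in tumours, against 42.6, 15.5 and 1.01 CPM in non-tumour liver (3.52 ± 1.10 [5.19], adjusted p = 0.0301). These 3 genes had tumour 4 and non-tumour 1 within a narrow gap, and single removals ended the calls of Cdh17 (up to 0.0632, without non-tumour 2, non-tumour 3 or tumour 5), Cpe (0.121, without non-tumour 2, non-tumour 3, tumour 5 or tumour 6) and Akr1c18 (0.225, without non-tumour 2, non-tumour 3, tumour 5 or tumour 6). Tmc5, a member of the transmembrane channel-like family, had 10.2, 35.1 and 14.0 CPM in tumours, against 0.841, 0 and 0.225 CPM in non-tumour liver (3.80 ± 0.62 [4.39], adjusted p = 0.000278). Styk1, a receptor-like kinase, had 16.01, 18.1 and 8.83 CPM in tumours, against 0, 0.341 and 0.112 CPM in non-tumour liver (3.69 ± 0.53, adjusted p = 0.000104). Both passed the filter on level only through the tumours. Of 9 tested imprinted growth genes 1 rose, a share near the background. It was Grb10, an adaptor that dampens insulin and IGF signalling, with 44.6 ± 27.9 CPM in tumours and 13.4 ± 3.78 in non-tumour liver (1.42 [2.29], adjusted p = 0.0146, up to 0.139 without non-tumour 2, tumour 5 or tumour 6).

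Of 10 tested cholangiocyte and progenitor markers, 7 rose and 0 fell (median 1.86; 7 and 0 without the 2 libraries; 5 to 8 rises with 1 library left out). Cftr, 1 of the 7, passed the filter on level only through the tumour libraries. The summed level of all 16 markers listed, tested or not, was 1854, 2050 and 704 CPM in tumours and 357, 248 and 319 CPM in non-tumour liver, most of it Spp1 in tumours 4 and 5. Spp1 (osteopontin), a secreted matrix protein of bile ducts, macrophages and tumour cells, had 1588, 1629 and 337 CPM in tumours, against 75.5, 41.6 and 107 CPM in non-tumour liver (3.76 ± 0.64, adjusted p = 0.000394). Sox9, the transcription factor of ducts and progenitors, had 16.1, 13.1 and 10.4 CPM in tumours, against 2.38, 2.38 and 3.26 CPM in non-tumour liver (1.94 ± 0.29, adjusted p = 0.000136; named after its values were seen). Prom1, a membrane protein of progenitors, had 18.7, 53.5 and 72.5 CPM in tumours, against 17.6, 4.77 and 2.25 CPM in non-tumour liver (2.61 ± 0.63 [3.87], adjusted p = 0.00606, and 0.0565 without non-tumour 3). The keratins Krt7 and Krt19, which define bile duct cells, did not reach 1 CPM in 3 of the 6 libraries and were not tested, and whether duct cells had a part in these rises was not tested.

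All 28 tested genes of mitosis had a positive difference, with a median of 0.99. By limma 0 were called with all 6 libraries or without the 2 libraries, 0 by limma-voom, and 0 to 4 with 1 library left out, and 6 had an unadjusted p under 0.05. The summed level was 608, 538 and 230 CPM in tumours and 333, 131 and 157 CPM in non-tumour liver, so non-tumour 1 lay above tumour 6. Mki67, the proliferation marker Ki-67, had 130, 139 and 42.6 CPM in tumours and 56.0, 29.8 and 30.0 CPM in non-tumour liver (1.29 ± 0.64, adjusted p = 0.18). Its promoter is shown because the list shares 2 elements known to time mitotic genes, CCAAT boxes and the cell cycle homology region TTTGAA. Capitals mark both on either strand (ATTGG and TTCAAA on the other), at chr7:135716330-135716629, minus strand, GRCm38.p6.
Mki67: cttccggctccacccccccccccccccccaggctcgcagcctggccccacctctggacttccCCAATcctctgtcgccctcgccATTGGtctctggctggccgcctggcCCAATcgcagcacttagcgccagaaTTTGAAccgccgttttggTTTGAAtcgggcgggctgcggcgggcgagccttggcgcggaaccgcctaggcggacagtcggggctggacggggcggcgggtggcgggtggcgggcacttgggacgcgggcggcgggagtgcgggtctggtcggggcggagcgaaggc
The window holds CCAAT at 3 places and TTTGAA at 2. CCAAT was in 23 and TTTGAA in 20 of 25 promoters of the list, against 37.6% and 12.5% of all tested promoters and 33.5% and 10.5% of those of genes called higher. Replication genes had 2 rises and 1 fall among 25 (median 0.20; 2 and 1 without the 2 libraries; 0 rises without non-tumour 2 or tumour 5), a share of rises near the background. Ccnd1 (cyclin D1), which carries growth signals into the cell cycle, had 119, 218 and 134 CPM in tumours, against 85.8, 29.3 and 62.7 CPM in non-tumour liver (1.47 ± 0.40, adjusted p = 0.0136), and Ccne1 (cyclin E1) 9.94 ± 4.34 CPM in tumours and 3.34 ± 2.81 in non-tumour liver (1.42 [2.29], adjusted p = 0.0284). Mcm10, a helicase-loading factor, fell to 16.4, 13.9 and 7.52 CPM in tumours, against 48.2, 84.7 and 62.5 CPM in non-tumour liver (-2.31 ± 0.36, adjusted p = 0.000191). The calls of Ccnd1 (up to 0.122, without non-tumour 2 or tumour 5) and Ccne1 (0.157, without non-tumour 2, non-tumour 3, tumour 5 or tumour 6) ended with 1 library left out.

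MAPK feedback genes, which the RAS and ERK pathway induces and many of which in turn restrain it, had 5 rises and 0 falls among 12 tested (median 0.67; 9 and 0 without the 2 libraries; 2 to 8 with 1 library left out, fewest without non-tumour 2 or tumour 5). Dusp4, an ERK phosphatase, had 20.1, 35.2 and 31.0 CPM in tumours, against 9.11, 3.92 and 2.70 CPM in non-tumour liver (2.35 ± 0.35 [2.996], adjusted p = 0.000129), and the phosphatase Dusp5 9.05, 34.3 and 25.3 CPM in tumours, against 6.72, 2.90 and 2.14 CPM in non-tumour liver (2.21 ± 0.48 [3.12], adjusted p = 0.00262). Dusp6, Spred1 and Ccnd1 made up the other calls. Ccnd1, already counted with the replication genes, is in the list as an induced gene and not as a restraint. Immediate early genes had 1 rise and 2 falls among 18, shares near the background (4 and 0 without the 2 libraries). Removing 1 library gave 0 to 3 rises and 0 to 2 falls, with 0 rises without non-tumour 2, non-tumour 3 or tumour 5. Klf4, a transcription factor, averaged 11.9 ± 8.98 CPM in tumours and 2.41 ± 1.92 in non-tumour liver (1.73 [2.86], adjusted p = 0.0128). The phosphatase Dusp1 averaged 28.6 ± 19.5 CPM in tumours and 58.7 ± 11.3 in non-tumour liver (-1.20, adjusted p = 0.0339) and the mRNA decay factor Zfp36 26.1 ± 5.65 CPM in tumours and 51.6 ± 8.06 in non-tumour liver (-0.96, adjusted p = 0.022). Without the 2 libraries the calls of Dusp1 (0.265) and Zfp36 (0.146) ended. Left out alone, non-tumour 1, non-tumour 2, tumour 4 or tumour 6 ended both calls, and non-tumour 3 that of Dusp1 (up to 0.183 and 0.0755), and single removals ended that of Klf4 (up to 0.129, without non-tumour 2, non-tumour 3 or tumour 5). The joint list of p53 targets and DNA damage genes had 5 rises and 1 fall among 20, with a median of 0.52 (11 and 1 without the 2 libraries). There were 1 to 11 rises with 1 library left out, fewest without non-tumour 2 or tumour 5. Psrc1, a microtubule-binding protein, had 3.48, 23.4 and 24.0 CPM in tumours, against 3.50, 0.170 and 1.35 CPM in non-tumour liver (2.596 ± 0.64 [3.90], adjusted p = 0.00698). Cdkn2b, the cell cycle inhibitor p15, had 3.60, 27.4 and 25.3 CPM in tumours, against 7.28, 1.53 and 0.674 CPM in non-tumour liver (2.20 ± 0.62 [3.73], adjusted p = 0.0158). Tumour 4 lay within the non-tumour range in both, and both calls ended without non-tumour 2 or tumour 5 (up to 0.0594 for Psrc1), that of Cdkn2b also without non-tumour 3 or tumour 6 (up to 0.115). Ei24, an apoptosis-linked membrane protein, averaged 103 ± 13.1 CPM in tumours and 155 ± 16.2 in non-tumour liver (-0.60, adjusted p = 0.00149).

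Markers of resident macrophages fell, while the calls among markers of recruited macrophages were rises in genes not specific to macrophages. Of 14 Kupffer cell markers, 8 fell and 0 rose (median -1.55; 6 and 0 without the 2 libraries), all 14 had a negative difference, and the summed level was 814, 809 and 730 CPM in tumours and 2337, 1208 and 1780 CPM in non-tumour liver. Clec4f, a lectin found on Kupffer cells alone in the mouse, had 54.8, 41.9 and 40.9 CPM in tumours, against 196, 170 and 225 CPM in non-tumour liver (-2.08 ± 0.44, adjusted p = 0.00208), and it was called with each library left out. Vsig4, a complement receptor, had 13.1, 20.4 and 18.2 CPM in tumours, against 61.8, 42.1 and 67.8 CPM in non-tumour liver (-1.67 ± 0.48, adjusted p = 0.0179, 0.0989 without the 2 libraries and up to 0.0764 without non-tumour 3 or tumour 4). Folr2, a folate receptor, averaged 4.15 ± 3.46 CPM in tumours and 23.5 ± 6.12 in non-tumour liver (-2.55, adjusted p = 0.00808, and 0.0901 without tumour 5). Marco, a scavenger receptor, had 2.79, 3.02 and 2.95 CPM in tumours, against 117, 18.4 and 20 CPM in non-tumour liver (-3.21 ± 0.80 [-2.34], adjusted p = 0.00747, 0.0758 without the 2 libraries and 0.051 without non-tumour 1). Non-tumour 1 was far above the other non-tumour livers. Genes ranked after the fact by how far non-tumour 1 lay above the other 5 libraries began with Marco and Acod1, the itaconate-producing enzyme of activated macrophages, at 26.9 CPM, with 1.16 to 4.54 CPM elsewhere. They also held the lysozyme Lyz2 of myeloid cells, at 542 CPM, with 144.9 to 238.4 CPM elsewhere. Of 17 markers of monocyte-derived macrophages, 4 rose and 0 fell (median 0.86; 4 and 0 without the 2 libraries; 2 to 5 rises with 1 library left out, most without non-tumour 1). The 4 were Spp1, Cd9, Fabp5 and Cd63, which cells other than macrophages also express. Of the 17 markers, 12 had a positive and 5 a negative difference. Cd63, a lysosomal tetraspanin, had 38.5, 90.1 and 73.8 CPM in tumours, against 28.7, 8.35 and 14.9 CPM in non-tumour liver (1.98 ± 0.57 [2.76], adjusted p = 0.0182, up to 0.119 without non-tumour 2, non-tumour 3, tumour 5 or tumour 6). The summed level of the 17 was 2262, 2477 and 1145 CPM in tumours and 1168, 335 and 746 CPM in non-tumour liver, so non-tumour 1 lay above tumour 6. Spp1, also counted with the cholangiocyte markers, held 1588, 1629 and 337 CPM of it in tumours and 75.5, 41.6 and 107 CPM in non-tumour liver. The high sums of tumours 4 and 5 were therefore mostly this gene.

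Lymphocyte and neutrophil markers had 0 calls by limma with all 6 libraries, and 0 by limma-voom. At an unadjusted p under 0.05 there were 2 of 15 tested T and NK cell markers, 0 of 5 B and plasma cell markers and 0 of 3 neutrophil markers. The T and NK cell markers had a median of 0.79, and 10 rose without the 2 libraries (0 to 4 with 1 library left out). The B and plasma cell markers had 1 rise and the neutrophil markers 0 rises and 0 falls without the 2 libraries. The summed level of the 17 T and NK cell markers in the data, tested or not, was 22.1, 121 and 65.3 CPM in tumours and 58.7, 17.9 and 21.1 CPM in non-tumour liver, so that tumour 4 and non-tumour 1 went against the other libraries of their groups. The T cell chemokine Ccl5 had 2.44, 17.4 and 9.93 CPM in tumours and 8.27, 3.07 and 2.36 CPM in non-tumour liver (0.82 ± 0.61, adjusted p = 0.402; 1.94, adjusted p = 0.0372 without the 2 libraries). Jchain, the joining chain of secreted antibodies, had 5.92, 45.1 and 327 CPM in tumours and 15.8, 13.3 and 2.36 CPM in non-tumour liver (2.34, adjusted p = 0.181; 4.15, adjusted p = 0.0227 without the 2 libraries). Tumour 6 was its highest library. Csf3r, the receptor of the neutrophil growth factor, averaged 6.41 ± 2.68 CPM in tumours and 5.16 ± 2.16 in non-tumour liver (0.26, adjusted p = 0.779).

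Antigen presentation by MHC class II had 0 calls among 9 genes by limma and limma-voom, and 0 at an unadjusted p under 0.05 (median 0.32; 1 rise and a median of 1.09 without the 2 libraries). Their summed level was 583, 1722 and 1013 CPM in tumours and 1797, 338 and 806 CPM in non-tumour liver, highest in non-tumour 1. Cd74, the invariant chain, had 240, 721 and 428 CPM in tumours and 661, 134 and 306 CPM in non-tumour liver (0.48 ± 0.63 [1.45], adjusted p = 0.66). Interferon-stimulated genes had 0 calls among 28 by both tools and 0 at an unadjusted p under 0.05 (median 0.09; 1 rise without the 2 libraries). The GTPase Iigp1 averaged 952 ± 203 CPM in tumours and 722 ± 396 in non-tumour liver (0.52, adjusted p = 0.332; 1.09, adjusted p = 0.0383 without the 2 libraries). Of 13 genes that IL-17 induces, 1 rose, a share near the background (3 without the 2 libraries, and 0 to 2 with 1 library left out, most without tumour 4). The neutrophil chemokine Cxcl1 had 16.01, 69.4 and 58.9 CPM in tumours, against 19.7, 9.03 and 9.66 CPM in non-tumour liver (1.67 ± 0.58 [2.65], adjusted p = 0.0482, up to 0.237 without non-tumour 2, non-tumour 3, tumour 5 or tumour 6). Lcn2 (lipocalin 2), an antibacterial protein of the same list, had 250, 2069 and 1381 CPM in tumours and 285, 59.3 and 109 CPM in non-tumour liver and was not called (2.85 ± 1.14 [4.38], adjusted p = 0.0909, and 0.0223 without the 2 libraries; named after its values were seen). Il17ra itself, the receptor subunit named in the other genotype label, had 22.9, 48.5 and 27.0 CPM in tumours and 25.2, 27.3 and 26.3 CPM in non-tumour liver (0.24 ± 0.31, adjusted p = 0.656, named after its values were seen).

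Stellate cell and fibrosis genes had 2 rises and 3 falls among 24, a share of rises near the background (median 0.31; 5 and 2 without the 2 libraries). Single removals gave 1 to 6 rises and 3 or 4 falls, with the fewest rises without non-tumour 2 or tumour 5. Acta2, the smooth muscle actin of activated stellate cells and vessel walls, had 9.75, 61.1 and 30.3 CPM in tumours, against 4.62, 4.77 and 2.13 CPM in non-tumour liver (2.56 ± 0.51 [3.37], adjusted p = 0.00131). Lrat, the retinol-storing enzyme of quiescent stellate cells, had 12.9, 27.2 and 20.9 CPM in tumours, against 76.5, 56.2 and 93.5 CPM in non-tumour liver (-1.87 ± 0.46, adjusted p = 0.00723, 0.0552 without the 2 libraries). Ecm1, an extracellular matrix protein, had 6.96, 20.7 and 12.4 CPM in tumours, against 41.6, 37.1 and 47.6 CPM in non-tumour liver (-1.70 ± 0.32, adjusted p = 0.000808). Col4a1, a basement membrane collagen, averaged 330 ± 103 CPM in tumours and 144.9 ± 40.1 in non-tumour liver (1.17, adjusted p = 0.0202, up to 0.13 without non-tumour 2 or tumour 5). Of 21 endothelial markers 1 rose and 2 fell, shares near the background (1 and 0 without the 2 libraries). Single removals gave 0 or 1 rise and 0 to 5 falls, most without tumour 5. Cd34, a marker of capillary endothelium, averaged 14.3 ± 5.74 CPM in tumours and 4.09 ± 0.851 in non-tumour liver (1.53, adjusted p = 0.0199, up to 0.125 without non-tumour 2, non-tumour 3 or tumour 5). The sinusoidal lectin Clec4g averaged 23.2 ± 9.49 CPM in tumours and 45.1 ± 5.32 in non-tumour liver (-1.01, adjusted p = 0.0303), and the Wnt co-ligand Rspo3 of central vein endothelium 3.93 ± 1.70 CPM in tumours and 10.5 ± 0.684 in non-tumour liver (-1.28, adjusted p = 0.0299). Both calls ended without the 2 libraries (0.271 and 0.144), and without non-tumour 2, non-tumour 3 or tumour 4 alone (up to 0.156 and 0.119). That of Clec4g also ended without non-tumour 1 or tumour 5.

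Plasma proteins of defence had calls in both directions. Acute phase proteins had 3 rises and 3 falls among 22 (median 0.03; 6 and 2 without the 2 libraries). With 1 library left out there were 0 to 6 rises, 0 of them without non-tumour 2 or tumour 6, and 1 to 3 falls, fewest without tumour 5. Apcs (serum amyloid P) averaged 181 ± 50.1 CPM in tumours and 61.0 ± 19.3 in non-tumour liver (1.56, adjusted p = 0.0267, 0.058 without the 2 libraries and up to 0.116 without non-tumour 2, non-tumour 3, tumour 4 or tumour 6), and Cp, the ferroxidase ceruloplasmin, 4999 ± 1661 CPM in tumours and 2315 ± 527 in non-tumour liver (1.07, adjusted p = 0.00947, up to 0.0578 without non-tumour 2 or tumour 6). Orm3, an orosomucoid, had 1.16, 0.454 and 1.20 CPM in tumours, against 15.7, 11.9 and 6.63 CPM in non-tumour liver (-2.63 ± 0.66, adjusted p = 0.00777), and Saa3 averaged 4.48 ± 2.13 CPM in tumours and 22.6 ± 14.8 in non-tumour liver (-1.98 [-1.27], adjusted p = 0.0153, 0.178 without the 2 libraries and up to 0.0843 without non-tumour 1 or tumour 5). Both belong to families of close copies. Complement and coagulation factors had 8 falls and 3 rises among 30, a share of rises near the background (median -0.17; 10 and 3 without the 2 libraries). Removing 1 library gave 1 (without tumour 5) to 12 falls and 1 (without non-tumour 3) to 3 rises. C6, a part of the membrane attack complex, averaged 71.2 ± 62.0 CPM in tumours and 261 ± 40.2 in non-tumour liver (-2.20 [-2.85], adjusted p = 0.00772, and 0.0764 without tumour 5), and Mbl1, a mannose-binding lectin, 63.0 ± 47.2 CPM in tumours and 157 ± 37.2 in non-tumour liver (-1.52 [-2.11], adjusted p = 0.00182). Clotting factor F11 rose to 59.0, 126 and 134 CPM in tumours, against 37.0, 44.1 and 18.7 CPM in non-tumour liver (1.65 ± 0.41, adjusted p = 0.00749, and 0.0653 without non-tumour 3), and Kng1, the kininogen, averaged 4921 ± 1995 CPM in tumours and 2261 ± 801 in non-tumour liver (1.08 [1.75], adjusted p = 0.0144, up to 0.107 without non-tumour 2, non-tumour 3, tumour 5 or tumour 6).

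Iron genes had 2 rises and 2 falls among 16, shares near the background (4 and 4 without the 2 libraries). Single removals gave 0 to 4 rises and 0 to 5 falls, with 0 of either without non-tumour 2. Besides Cp, the importer Slc39a14 averaged 354 ± 148 CPM in tumours and 212 ± 29.7 in non-tumour liver (0.66, adjusted p = 0.0422). The exporter Slc40a1 (ferroportin), also made by Kupffer cells, averaged 166 ± 69.6 CPM in tumours and 289 ± 8.11 in non-tumour liver (-0.88, adjusted p = 0.0429), and the iron sensor Tfr2 189 ± 48.4 CPM in tumours and 267 ± 31.2 in non-tumour liver (-0.52, adjusted p = 0.016). Non-tumour 2, non-tumour 3 or tumour 5 left out alone ended the 3 calls, and non-tumour 1 or tumour 6 those of Slc39a14 and Slc40a1 (up to 0.346 for Slc39a14, 0.171 for Slc40a1 and 0.155 for Tfr2). Alas2, the erythroid enzyme of haem synthesis, had 25.2, 25.3 and 17.7 CPM in tumours, against 64.5, 116 and 94.6 CPM in non-tumour liver (-1.94 ± 0.33, adjusted p = 0.000429), the only call among 5 tested red blood cell markers. The summed level of all 7 markers listed, tested or not, was 271, 529 and 319 CPM in tumours and 505, 511 and 929 CPM in non-tumour liver. Circadian clock genes had 0 calls among 18 by both tools and 0 at an unadjusted p under 0.05. Nr1d2, a repressor of the clock, averaged 160 ± 27.8 CPM in tumours and 166 ± 24.5 in non-tumour liver (-0.06, adjusted p = 0.901). Markers of neighbouring tissues were not called. The pancreatic elastase Cela1 averaged 27.4 ± 6.8 CPM in tumours and 13.6 ± 0.912 in non-tumour liver, without overlap (adjusted p = 0.119). The adipocyte fatty acid binder Fabp4 averaged 25.7 ± 2.5 CPM in tumours and 32.2 ± 13.5 in non-tumour liver (adjusted p = 0.849). The filter was passed by 1 exocrine pancreas and 2 adipocyte markers, and 1 of each kind had an unadjusted p under 0.05 by limma.

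**Figure D4:**
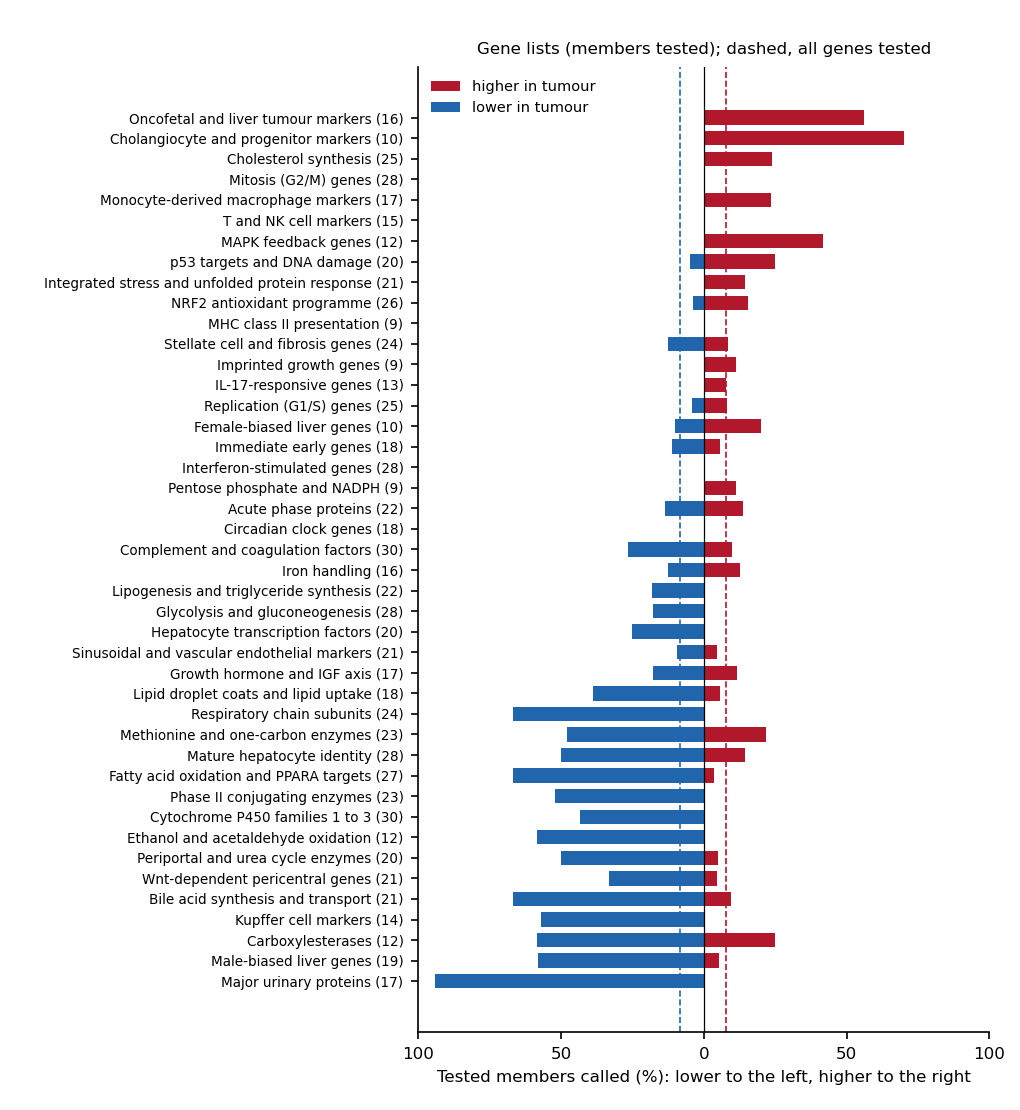
Share of the tested members of each gene list (number tested in brackets, lists of 9 or more) called higher in tumour (red, right) or lower (blue, left), with lists ordered from the highest median log2 fold change at the top. Dashed lines are the shares of all genes tested, 7.93% higher and 8.24% lower; major urinary proteins lie at the bottom with 16 of 17 lower, and cholangiocyte and progenitor markers show 7 of 10 higher.

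Cytosolic ribosomal proteins, grouped by name after the calls were seen, moved together by a small amount. Of 74 tested genes named Rpl, Rps or Rplp with a number, 33 rose and 0 fell, all 74 had a positive difference, and the median was 0.43 (0.49 without the 2 libraries). With 1 library left out 3 (without non-tumour 2) to 54 (without non-tumour 1) rose. Their summed level was 19340, 14710 and 18590 CPM in tumours and 15170, 11100 and 12400 CPM in non-tumour liver, so tumour 5 lay below non-tumour 1. Rpl12, a protein of the large subunit, had 350, 249 and 311 CPM in tumours, against 207, 126 and 157 CPM in non-tumour liver (0.91 ± 0.19, adjusted p = 0.00237, named after its values were seen).

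The tumour difference was then set against that of the most similar comparisons, in the same fit. Between WT mice on HFD and WT mice on alcohol, the difference itself was called for 1 of 12673 genes (0.00789%), and between WT and the label IL17RA-/- on HFD for 2 (0.0158%); at an unadjusted p under 0.05 the numbers were 1090 and 1939. Il17ra averaged 59.4 ± 4.44 CPM in the tumours and 24.5 ± 10.3 in the non-tumour livers labelled IL17RA-/- on HFD (SD, n = 3 each), beside 32.8 ± 13.8 CPM in tumours and 26.3 ± 1.02 CPM in non-tumour livers of WT mice on HFD. The tumours under the label, at 54.4 to 62.9 CPM, all lay above the WT HFD tumours at 22.9 to 48.5 CPM, while the non-tumour livers overlapped, at 16.5 to 36.1 CPM under the label and 25.2 to 27.3 CPM in WT. Which part of the gene was deleted is not given in the sources used here. Prdx6 (ENSMUSG00000026701), a peroxiredoxin that reduces phospholipid peroxides, was called in both. It had 422, 380 and 371 CPM in WT HFD tumours and 413, 522 and 576 CPM in the non-tumour livers (-0.35 ± 0.13, adjusted p = 0.0744; -0.54, adjusted p = 0.0112 without the 2 libraries), with tumour 4 above non-tumour 1. In WT mice on alcohol it averaged 173 ± 31.9 CPM in tumours (n = 3) and 507 ± 37.3 in non-tumour liver (n = 5), a log2 fold change of -1.56. Under the label IL17RA-/- on HFD it averaged 174 ± 13.5 CPM in tumours and 559 ± 39.5 in non-tumour liver (n = 3 each), a log2 fold change of -1.68. All 10 tumours of the other groups lay between 136 and 237 CPM, below each WT HFD tumour, while the 16 non-tumour livers of the series lay between 413 and 592 CPM. The difference of differences was 1.21 ± 0.18 (adjusted p = 0.00598) against alcohol and 1.33 ± 0.19 (adjusted p = 0.00305) against the label. Without the 2 libraries the values were 1.02 (adjusted p = 0.182) and 1.13 (adjusted p = 0.0357).

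Rbp4 (ENSMUSG00000024990), the plasma carrier of retinol, was called against the label alone. It had 619, 902 and 1038 CPM in WT HFD tumours and 1124, 1144 and 1108 CPM in the non-tumour livers (-0.43 ± 0.17, adjusted p = 0.0864; -0.22, adjusted p = 0.437 without the 2 libraries), every tumour below every non-tumour liver. Under the label IL17RA-/- on HFD it averaged 2137 ± 147 CPM in tumours and 1123 ± 62.0 in non-tumour liver, a log2 fold change of 0.93, and all 10 tumours of the other groups lay between 1503 and 2449 CPM. The difference of differences was -1.36 ± 0.24 (adjusted p = 0.0465), and against WT on alcohol it was -1.14 (adjusted p = 0.171). The call ended without the 2 libraries (adjusted p = 0.127) and with tumour 4 (0.119), non-tumour 2 (0.114) or non-tumour 3 (0.0792) left out. The count of genes that differed from the label rested on single libraries as well: it was 811 without tumour 5, 11 without tumour 6 and 7 without non-tumour 1. Against alcohol it was 4 without tumour 5 and 6 without tumour 6.

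**Figure D5:**
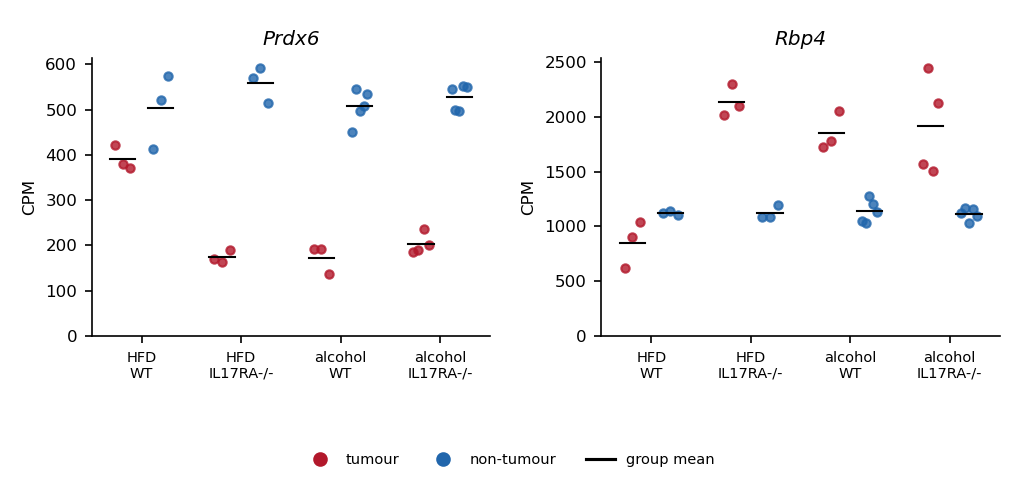
CPM of Prdx6 (left) and Rbp4 (right) in all 29 libraries, with tumours in red left of non-tumour livers in blue for each diet and genotype label and group means as black bars. WT HFD tumours hold 371 to 422 CPM of Prdx6 and 619 to 1038 CPM of Rbp4, while the other 10 tumours hold 136 to 237 and 1503 to 2449 CPM.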

How the data were processed

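PolyA-selected RNA of 29 mouse liver libraries was sequenced with a stranded kit, per the labels' protocols, and libraries were grouped by their labels. The values analysed are CPM as the authors deposited them: each library sums to 1000000 over the 22187 gene IDs listed. The submitters' processing notes name STAR 2.5.1a, RSEM 1.3.0 and GRCm38, in no stated order; filters and annotation are not stated. RSEM shares reads among like genes, which makes single members of copied families uncertain. In the deposited CPM, 83.3% to 84.7% of the values above 0 in the 6 libraries were whole counts within 0.002 counts, which gave the depths stated; floors cover counting error only. GENCODE M21 (GRCm38) supplied a symbol and position for 21653 IDs; the other 534 hold 0.138% of the CPM. Mitochondrial and Y-linked genes were not analysed here.

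Genes with at least 1 CPM in 3 or more of the 6 libraries were tested with limma 3.58.1 (R 4.3.3, variance trend) on log2(CPM + 1), which understates the change of low genes. The fit took all 29 libraries with 8 group means, two-sided, with Benjamini-Hochberg adjustment over the 12673 genes, and was tested on simulated data. RefSeq promoter windows (GRCm38.p6) matched 9883 tested gene symbols. Named genes were the 10 largest called rises and falls (a mean of at least 5 CPM in the higher group, no overlap, no predicted genes) and up to 2 called rises and 2 called falls per list, or else the member with the highest mean. Called differences between comparisons and Clec4f, Vsig4, Alb, Afp, Gpc3 and Mki67 were added; others are marked in the text. The members, the 48 gene lists and the doubted libraries were chosen with earlier results of these data known. Alternatives were a pseudocount of 0.1, other filters, rescaling, limma-voom on recovered counts, a fit of the compared groups alone, and leaving out libraries. Some named genes are not reported here.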

Additional observations from a re-analysis of the deposited data

Results flagged for a closer look

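The difference between tumour and non-tumour liver itself differed from another comparison for 2 genes. For Prdx6 the log2 difference in WT mice on HFD was 1.21 above that in WT mice on alcohol (adjusted p = 0.00598), and 1.33 above that in mice labelled IL17RA-/- on HFD (adjusted p = 0.00305). The comparison with the label was called in each alternative but the fit of the compared groups alone (adjusted p = 0.38), whereas the comparison with alcohol was lost in that fit (0.518), after rescaling (0.356) and without tumour 4 and non-tumour 1 (0.182). For Rbp4 the log2 difference in WT mice on HFD was -1.36 relative to the label on HFD (adjusted p = 0.0465), with adjusted p from 0.00423 to 0.38 over the alternatives.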

How the results depend on the processing

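Of 111 called genes named above, 0 changed direction, 32 were called in every alternative and 48 in every alternative but the fit of the compared groups alone. That fit, of the 6 libraries, ended 60 of the 111 calls and gave 194 higher and 219 lower genes, and fits of the 4 groups compared gave 0 for each difference between comparisons. Limma-voom ended 8 of them: Mup12, Mup15 and Mup17 (above) and, at adjusted p from 0.0511 to 0.0773, Klf4, Cdh17, Cpe, Psrc1 and Orm3. Single removals ended 10 (non-tumour 1 or tumour 4) to 45 (tumour 5) of them, and gave 429 to 1202 higher genes, 561 to 1590 lower genes, 1 to 6 genes differing from alcohol and 1 to 811 differing from the label. The count that differed from alcohol was 0 after median-ratio rescaling and 0 without both doubted libraries; that differing from the label was 6 after rescaling, 6 with no filter and 1 with the filter over 29 libraries. Among genes that were not called, the log2 difference changed sign with 1 library left out, between -0.10 (without non-tumour 2) and 1.05 for Cd74, -5.958e-05 (without tumour 5) and 0.55 for Csf3r, and -0.61 and 0.040 (without non-tumour 1) for Fabp4. For Nr1d2 it lay between -0.18 and 0.092 (without tumour 6), with 0.036 without non-tumour 3, and for Fabp4 it was 0.026 without both doubted libraries. The cause was not tested. The other alternatives kept both counts within 1.5 times. No paired analysis was possible because nothing in the labels ties a library to an animal. Depth limited values under 0.327 to 0.511 CPM.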
